A study of Mus musculus with 6 samples.

Results

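The 9 genes described here, Cacna1a, Cacna1b, Cacna1c, Cacna1d, Cacna1e, Cacna1f, Cacna1g, Cacna1h and Cacna1i, encode alpha1 subunits of voltage-gated calcium channels. They were taken by symbol from a count table of 32371 mouse gene identifiers, and all 9 were among the 18138 genes that held enough counts to be tested. The table compared sorted retinal cells of adult C57BL/6J mice that had received AAV2-GFP (GFP, 3 libraries) with cells of mice that had received AAV2-Ezh2-Y726D (Ezh2-Y726D, 3 libraries). Y726D marks an exchange of a tyrosine for an aspartic acid in the histone methyltransferase Ezh2, described as removing its catalytic activity. In both groups the virus was injected into the vitreous body, the optic nerve was crushed 2 weeks later, and cells carrying the surface antigen CD90.2 were sorted 3 days after the crush to enrich retinal ganglion cells (RGCs). Every animal therefore carried a vector and a crush injury, and uninjured or uninjected retina was not analysed here. AAV2 is not restricted to RGCs, and the promoter in the vectors was not taken from the sources used here. The question was how pore subunit transcripts in these cells differed between these vectors.

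An alpha1 subunit forms the pore, the voltage sensor and the drug binding sites of a calcium channel, and it largely sets the current that the channel carries. L-type channels (Cacna1c, Cacna1d, Cacna1f) give long-lasting currents and are the targets of dihydropyridines, and Cacna1f carries the sustained calcium entry at the ribbon synapses of photoreceptors. P/Q-, N- and R-type channels (Cacna1a, Cacna1b, Cacna1e) trigger transmitter release at most conventional synapses. T-type channels (Cacna1g, Cacna1h, Cacna1i) open close to the resting potential, inactivate quickly and shape burst firing. In the retina, members of each class are found in neurons of several layers, so that their transcripts are not markers of RGCs.

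The alpha1 chain has 4 repeats, and 1 acidic residue in the pore loop of each repeat forms the ring that selects calcium. In repeats III and IV the codon of that residue separates the T-type genes from the others, and it is shown in capitals in 27 bases of coding sequence of repeat IV for each gene, read 5′ to 3′ from the longest coding transcript in GENCODE vM21 (GRCm38). The 6 L- and P/Q-, N- and R-type genes carried a glutamate codon (GAG or GAA), and the 3 T-type genes carried an aspartate codon (GAC or GAT).
Cacna1c: tgtgccaccggaGAGgcctggcaggac
Cacna1d: tgtgcaacagggGAAgcctggcaggag
Cacna1f: tgtgccactggtGAGgcctggcaagag
Cacna1a: agcgccacaggaGAAgcgtggcacaac
Cacna1b: agtgccactgggGAGgcctggcatgag
Cacna1e: agtgccacggggGAGgcttggcaggag
Cacna1g: gtctccactggtGACaactggaatggt
Cacna1h: gtgtccactgggGACaactggaatggg
Cacna1i: gtctccacaggcGATaactggaatggg

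Each of these windows lay in 1 exon. The L-type windows were at chr6:118614050-118614076 (Cacna1c, minus strand, exon 36), chr14:30075944-30075970 (Cacna1d, minus strand, exon 36) and chrX:7629416-7629442 (Cacna1f, plus strand, exon 36). Those of the next class were at chr8:84611599-84611625 (Cacna1a, plus strand, exon 35), chr2:24635213-24635239 (Cacna1b, minus strand, exon 36) and chr1:154425975-154426001 (Cacna1e, minus strand, exon 37). The T-type windows were at chr11:94416415-94416441 (Cacna1g, minus strand, exon 32), chr17:25377771-25377797 (Cacna1h, minus strand, exon 31) and chr15:80388485-80388511 (Cacna1i, plus strand, exon 31). Between T-type genes 23 to 24 of the 27 bases were identical, between the other 6 genes 18 to 24, and between a T-type gene and one of the others 12 to 18. Repeat III held the same contrast, shown for the member with the largest rise and the member with the largest fall.
Cacna1c, repeat III: gtctccaccttcGAAgggtggccagag
Cacna1h, repeat III: ctgtcatccaagGATggctgggtaaac

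In repeat III the Cacna1c codon again encoded glutamate and the Cacna1h codon aspartate. The window crossed an exon junction in all 6 L- and P/Q-, N- and R-type genes, between exons 27 and 28 in Cacna1c (chr6:118654455-118656138, minus strand), and lay in exon 24 in all 3 T-type genes (chr17:25383496-25383522, minus strand, for Cacna1h). All 9 genes had a glutamate codon in repeats I and II. The sequences are those of the reference and show which genes were counted, since the count table holds no reads.

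The libraries held 9333244 to 23782520 counts. A ribosomal RNA gene, CT010467.1, made up 50.9% of GFP replicate 2, 52.2% of GFP replicate 3 and 2.55% to 16.1% of each other library, so levels are given as counts per 1000000 counts of the TMM-scaled library (CPM), a scaling that assumes that most genes do not differ. Counts of the 9 members ran from 105 (Cacna1c, GFP replicate 3) to 5486 (Cacna1h, GFP replicate 1). Ezh2 stood at 22.7, 23.9 and 26.4 CPM with GFP and at 65.2, 65.6 and 65.2 CPM with Ezh2-Y726D (log2 fold change 1.46 ± 0.061 SE). The labels thus matched the targeted gene, although counts of the vector and of the endogenous gene cannot be told apart. The labels number the libraries as replicates without naming animals, so adjusted P values measure the spread between libraries. All 10 markers of RGCs were detected in every library, among them Nefl (132 to 151 CPM over the 6 libraries), Slc17a6 (76.2 to 86.1 CPM) and Pou4f2 (0.983 to 1.82 CPM). Markers of rods, cones, bipolar cells, amacrine cells, Müller glia, microglia, phagocytes and T cells were detected as well.

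With Ezh2-Y726D, 7 of the 9 pore subunits were higher and 2 were lower at an adjusted P under 0.05 by edgeR (quasi-likelihood test, with P adjusted by the Benjamini-Hochberg method over all genes tested). Over those 18138 genes, 13.9% were called higher and 13.6% lower. The members called higher were Cacna1a, Cacna1b, Cacna1c, Cacna1d, Cacna1e, Cacna1g and Cacna1i, and those called lower were Cacna1f and Cacna1h. The GFP and Ezh2-Y726D libraries did not overlap in CPM for any of the 9 genes, a separation that 38.6% of all genes showed. The median log2 fold change was 0.36 over the members and 0.0019 over all genes tested. At the threshold for a differentially expressed gene (DEG, adjusted P under 0.05 and fold change over 1.5), Cacna1c was called higher and Cacna1h lower, where 2.52% and 5.5% of all genes were called. In bulk RNA, fewer cells of a type and less RNA in each cell cannot be told apart, and this holds for each difference below.

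**Figure D1:**
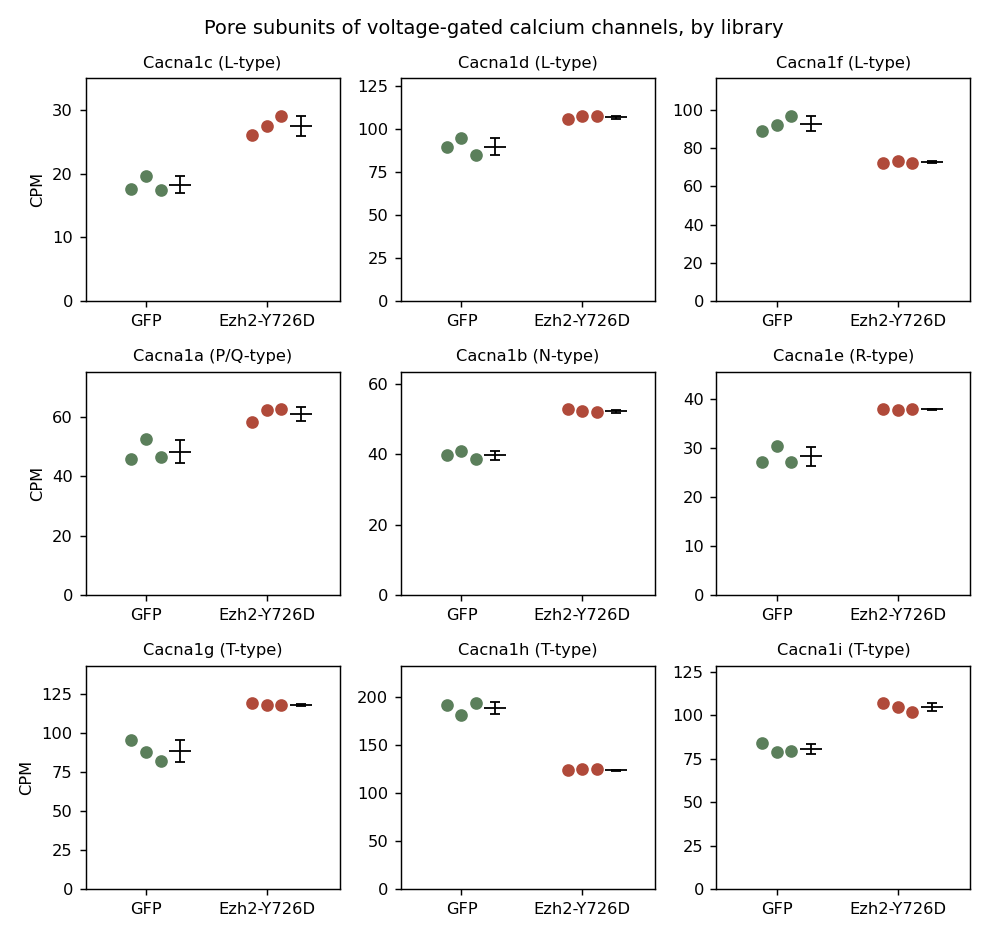
CPM of each pore subunit in the 3 GFP (green) and 3 Ezh2-Y726D (red) libraries, each panel with its own axis from 0. Points are libraries in the order of replicates 1 to 3 and bars show the mean ± SD. The groups are apart in every panel, with Ezh2-Y726D below GFP for Cacna1f and Cacna1h and above it for the other 7 genes.

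Among the L-type genes, Cacna1c (CaV1.2, the dihydropyridine receptor of heart and brain) and Cacna1d (CaV1.3, which opens at more negative potentials) rose and Cacna1f (CaV1.4) fell. Cacna1c (ENSMUSG00000051331, chr6:118587240-119196418, minus strand) was at 17.6, 19.7 and 17.4 CPM with GFP and at 26.0, 27.4 and 29.1 CPM with Ezh2-Y726D. The lowest Ezh2-Y726D library thus stood well above the highest GFP library, and the rise was 1.53-fold (log2 fold change 0.61 ± 0.074 SE, 95% interval 0.46 to 0.76, adjusted P = 1.69e-07). It was the largest rise among the 9 members and rested on the fewest counts, 105 to 859 in a library. Cacna1d (ENSMUSG00000015968, chr14:30039939-30491455, minus strand) was at 89.8, 94.8 and 85.3 CPM with GFP and at 106, 108 and 108 CPM with Ezh2-Y726D. Its rise of 1.19-fold was the smallest difference of the 9 in size (log2 fold change 0.25 ± 0.044, interval 0.16 to 0.35, adjusted P = 4.9e-05). An exonic stretch of 4.67% of Cacna1d is shared with Chdh on the other strand, and whether the counting used strand was not given in the sources used here.

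Cacna1f (ENSMUSG00000031142, chrX:7607083-7635196, plus strand) was at 89.1, 91.8 and 96.9 CPM with GFP. With Ezh2-Y726D it was at 72.3, 73.3 and 72.4 CPM, below every GFP library and with little spread. The fall was 1.26-fold (log2 fold change -0.34 ± 0.046 SE, interval -0.43 to -0.24, adjusted P = 1.28e-06). Within each library, the ratio of Cacna1f counts to Cacna1d counts, which no scaling between libraries can change, was 0.993, 0.969 and 1.14 with GFP and 0.679, 0.677 and 0.672 with Ezh2-Y726D. Markers of cone, bipolar and rod cells, whose ribbon synapses use CaV1.4, are given beside this fall. All 7 cone markers were called lower, with a median log2 fold change of -0.64 and a summed level of 407 to 429 CPM with GFP and 266 to 279 CPM with Ezh2-Y726D. Of 8 bipolar cell markers, 7 were called lower and Prkca was called higher, with a median of -0.39 and sums of 952 to 970 CPM and 796 to 814 CPM. Of 8 rod markers, 3 were called higher and none lower, with a median of 0.095 and sums of 5659 to 5828 CPM and 6204 to 6404 CPM. Among all genes tested, 13.9% were called higher and 13.6% lower. No marker of these lists was at 0 in all libraries of a group, and the part of these cells in the difference of Cacna1f was not tested.

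The genes of the P/Q-, N- and R-type class all rose, by 1.28-fold to 1.35-fold. Cacna1a (CaV2.1, the P/Q-type channel of fast central synapses, ENSMUSG00000034656, chr8:84388440-84640246, plus strand) was at 45.7, 52.6 and 46.4 CPM with GFP and at 58.2, 62.3 and 62.5 CPM with Ezh2-Y726D. GFP replicate 2 stood above the other 2 control libraries yet below all Ezh2-Y726D libraries, and the rise was 1.28-fold (log2 fold change 0.35 ± 0.058 SE, interval 0.24 to 0.47, adjusted P = 1.93e-05). Cacna1b (CaV2.2, the N-type channel blocked by omega-conotoxin, ENSMUSG00000004113, chr2:24603887-24763152, minus strand) was at 39.7, 41.0 and 38.5 CPM with GFP and at 52.7, 52.1 and 51.9 CPM with Ezh2-Y726D. Both groups were tight and the rise was 1.31-fold (log2 fold change 0.39 ± 0.055, interval 0.28 to 0.51, adjusted P = 2.04e-06). Cacna1e (CaV2.3, the R-type channel, ENSMUSG00000004110, chr1:154390731-154884501, minus strand) was at 27.1, 30.4 and 27.2 CPM with GFP and at 37.9, 37.8 and 37.9 CPM with Ezh2-Y726D. It rose 1.35-fold (log2 fold change 0.44 ± 0.062, interval 0.31 to 0.57, adjusted P = 2.39e-06), and the intervals of the 3 genes overlapped. The count ratio of Cacna1b to Cacna1e was 1.46, 1.35 and 1.41 with GFP and 1.39, 1.38 and 1.37 with Ezh2-Y726D, so the groups overlapped, as they did for Cacna1a to Cacna1b (1.15, 1.28 and 1.21 against 1.1, 1.2 and 1.2). For Cacna1a to Cacna1e the groups were apart, with 1.69, 1.73 and 1.71 against 1.53, 1.65 and 1.65. Gm16183, on the other strand, shares 3.81% of the exonic bases of Cacna1a.

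Amacrine cell markers moved in the same direction as these 3 genes. All 7 that were tested, among them the GABA-synthesizing enzyme Gad1 and the glycine transporter Slc6a9, were called higher, with a median log2 fold change of 0.61 and a summed level of 662 to 741 CPM with GFP and 1111 to 1153 CPM with Ezh2-Y726D. The eighth, Chat, had too few counts to be tested (0 to 19 in a library). Of the RGC markers, 2 of 10 were called higher (Pou4f1 and Thy1, the latter encoding the antigen used for sorting) and none lower. Their median was -0.073, with sums of 444 to 458 CPM with GFP and 434 to 473 CPM with Ezh2-Y726D. Among all genes tested, 13.9% were called higher and 13.6% lower. The part of amacrine cells in the rise of the 7 members was not tested.

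The T-type genes split. Cacna1h (CaV3.2, ENSMUSG00000024112, chr17:25374285-25433783, minus strand) was at 192, 182 and 194 CPM with GFP and at 124, 125 and 125 CPM with Ezh2-Y726D. The Ezh2-Y726D libraries lay close together and far below the control libraries, a fall of 1.52-fold (log2 fold change -0.61 ± 0.039 SE, interval -0.69 to -0.53, adjusted P = 1.43e-12). Cacna1g (CaV3.1, ENSMUSG00000020866, chr11:94408391-94474198, minus strand) was at 95.7, 87.5 and 81.9 CPM with GFP and at 119, 118 and 118 CPM with Ezh2-Y726D. The control libraries spread more than the Ezh2-Y726D libraries but all lay below them, and the rise was 1.32-fold (log2 fold change 0.40 ± 0.047, interval 0.30 to 0.49, adjusted P = 1.45e-07). Cacna1i (CaV3.3, ENSMUSG00000022416, chr15:80287238-80398279, plus strand) was at 83.8, 78.6 and 79.4 CPM with GFP and at 107, 105 and 102 CPM with Ezh2-Y726D, a rise of 1.29-fold (log2 fold change 0.36 ± 0.045, interval 0.27 to 0.46, adjusted P = 2.43e-07). Tpsg1, on the other strand, shares 1.62% of the exonic bases of Cacna1h.

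Ratios within a library do not depend on the scaling and are given as a description. The ratio of Cacna1h counts to Cacna1g counts was 2.01, 2.08 and 2.36 with GFP and 1.04, 1.05 and 1.06 with Ezh2-Y726D. That of Cacna1h to Cacna1i was 2.30, 2.32 and 2.44 with GFP and 1.16, 1.19 and 1.22 with Ezh2-Y726D. The ratio of Cacna1g to Cacna1i, by contrast, overlapped between the groups (1.14, 1.11 and 1.03 against 1.12, 1.12 and 1.15). Cacna1h also fell relative to the other member that was lower, since the ratio of Cacna1f to Cacna1h was 0.463, 0.504 and 0.50 with GFP and 0.585, 0.588 and 0.579 with Ezh2-Y726D. In the 14 pairs of a member called higher with a member called lower, the absence of overlap follows from the levels of the single genes, which did not overlap in CPM. Of the 21 pairs of members that were both called higher, 9 had ratios that did not overlap between the groups. All of these except Cacna1a with Cacna1e held Cacna1c or Cacna1d, the members with the largest and the smallest rise. The share over pairs of other genes was not computed, and 38.6% of all single genes did not overlap in CPM. The pairs share genes and are not independent of each other.

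**Figure D2:**
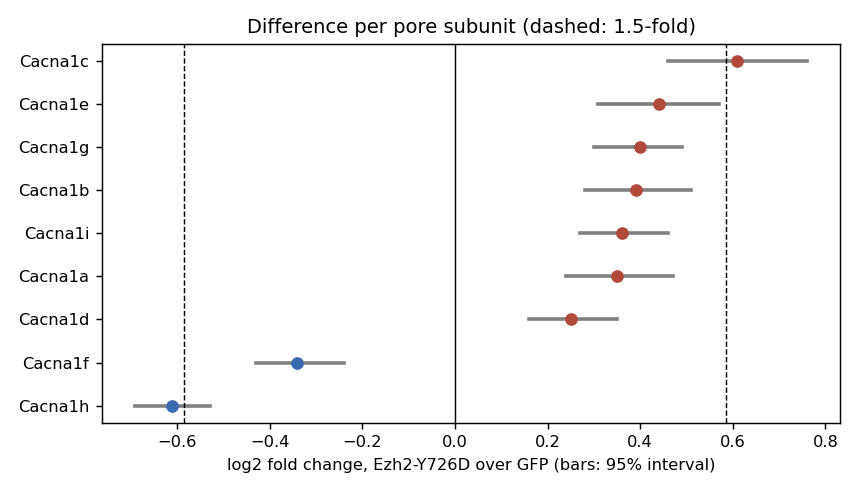
Log2 fold change of each pore subunit, Ezh2-Y726D over GFP, with its 95% interval. Red marks genes called higher and blue genes called lower, and dashed lines mark a 1.5-fold change. Only Cacna1c (0.61) and Cacna1h (-0.61) lie past the dashed lines, and both of their intervals reach back across them.

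Beside the cone and bipolar cell lists, further marker lists moved in the direction of Cacna1h. All 6 phagocyte markers were called lower, with a median log2 fold change of -1.66 and sums of 732 to 819 CPM with GFP and 186 to 214 CPM with Ezh2-Y726D. All 5 T cell markers were called lower as well, with a median of -0.67 and sums of 62.1 to 65.3 CPM and 36.5 to 41.1 CPM, and 3 of 4 markers of pericytes and smooth muscle were called lower with a median of -0.35. Müller glia markers had 2 called higher and 1 lower of 6, with a median of -0.047. Microglia markers had 2 called higher and 2 lower of 6, with a median of -0.073 and sums of 246 to 276 CPM with GFP and 204 to 241 CPM with Ezh2-Y726D. These counts stand beside 13.9% of all genes called higher and 13.6% called lower. No gene of these lists was at 0 in all libraries of a group. The part of these cells in the fall of Cacna1h was not tested.

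To compare levels between genes, CPM was divided by the summed exonic length of each gene in kilobases. With GFP, Cacna1h had the highest level, 19.4 ± 0.638 CPM per kilobase (SD, n = 3), followed by Cacna1f at 10.2 ± 0.431. Cacna1g (8.72 ± 0.685) and Cacna1i (8.17 ± 0.287) overlapped over the libraries, then came Cacna1d (7.13 ± 0.379), and Cacna1a (4.23 ± 0.333) and Cacna1b (4.0 ± 0.128) again overlapped. Cacna1e (1.12 ± 0.0751) and Cacna1c (0.861 ± 0.0607) were lowest. With Ezh2-Y726D, Cacna1h was still first at 12.7 ± 0.0697 CPM per kilobase, now close to Cacna1g at 11.7 ± 0.0627 and Cacna1i at 10.6 ± 0.225, although these 3 did not overlap. Cacna1d (8.52 ± 0.0715) then passed Cacna1f (8.0 ± 0.056), which moved from the second to the fifth place. Cacna1a (5.34 ± 0.213) and Cacna1b (5.25 ± 0.0441) overlapped once more, with Cacna1e (1.5 ± 0.00181) and Cacna1c (1.30 ± 0.0725) last. Divided by the longest transcript instead, Cacna1h stayed first and Cacna1c last in both groups, Cacna1d stood ahead of Cacna1i in both, and Cacna1f was second with GFP and next after Cacna1d with Ezh2-Y726D, where it overlapped that gene. By that length Cacna1a and Cacna1b did not overlap in either group. They stood at 6.09 and 4.08 CPM per kilobase with GFP and at 7.69 and 5.37 with Ezh2-Y726D.

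The summed level of the 9 genes was 667 to 681 CPM with GFP and 703 to 709 CPM with Ezh2-Y726D. As shares of the summed counts per kilobase within each library, the P/Q-, N- and R-type genes held 14.1%, 15.6% and 14.3% with GFP and 18.4%, 18.7% and 18.8% with Ezh2-Y726D. The difference of 3.98 percentage points had P = 0.1 in a two-sided exact permutation test over the 6 libraries, the smallest value that 3 libraries against 3 can give. T-type genes held 58.4%, 55.3% and 56.9% with GFP and 54.4%, 53.8% and 53.7% with Ezh2-Y726D, also without overlap (exact permutation P = 0.1). The L-type share was 27.5%, 29.1% and 28.8% with GFP and 27.2%, 27.5% and 27.6% with Ezh2-Y726D, and the groups overlapped (exact permutation P = 0.2). The share of Cacna1h was 30.6%, 29.3% and 31.4% with GFP and 19.6%, 19.6% and 19.7% with Ezh2-Y726D, while Cacna1g went from a mean of 13.7% to 18.0% and Cacna1i from 12.8% to 16.3%. Within the L-type class, Cacna1f went from a mean of 16.0% to 12.3%, Cacna1d from 11.2% to 13.1% and Cacna1c from 1.35% to 2.00%. The permutation tests cannot reach 0.05 in this design, and the shares carry no call of their own.

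**Figure D3:**
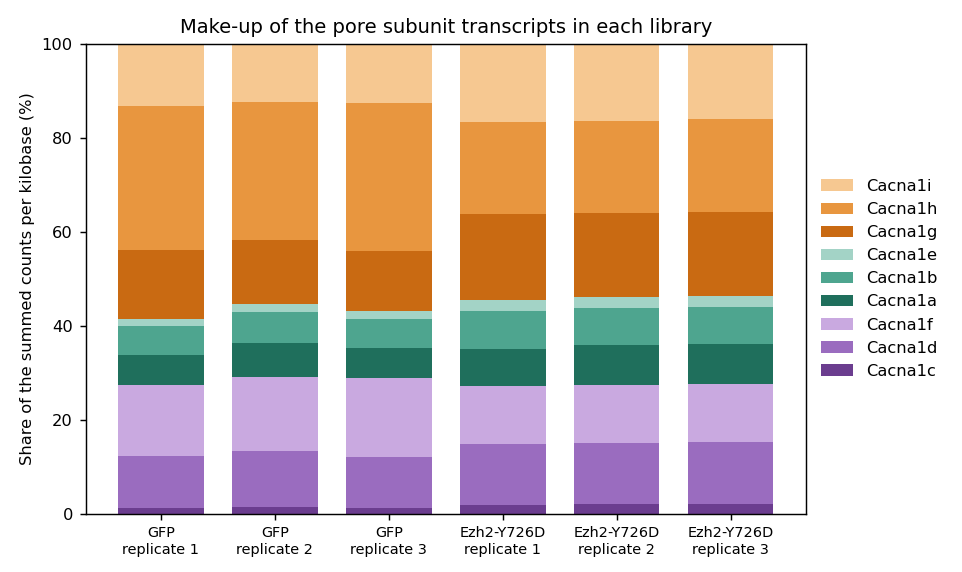
Share of each pore subunit in the summed counts per kilobase of the 9 genes, for each library. T-type genes are in orange, P/Q-, N- and R-type genes in green and L-type genes in violet. The band of Cacna1h narrows from 29.3% to 31.4% in the GFP libraries to 19.6% to 19.7% in the Ezh2-Y726D libraries, and the bands of Cacna1g and Cacna1i widen.

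A pair of related pore genes outside the 9 were measured as well. Nalcn, the pore of the sodium leak channel, was at 90.5, 92.1 and 83.1 CPM with GFP and at 110, 121 and 119 CPM with Ezh2-Y726D (log2 fold change 0.39 ± 0.047 SE, adjusted P = 2.25e-07). Cacna1s (CaV1.1, the L-type subunit of skeletal muscle) was at 14.3, 13.4 and 17.2 CPM with GFP and at 12.2, 12.6 and 11.7 CPM with Ezh2-Y726D. Its fall was called (log2 fold change -0.27 ± 0.092, adjusted P = 0.0249). The call was lost with RGC marker scaling (adjusted P = 0.216), DESeq2 (0.0885), thinned counts (0.101) and library totals (0.678), without both GFP libraries rich in CT010467.1 (0.0991), and without GFP replicate 1, GFP replicate 3 or Ezh2-Y726D replicate 3 (0.0648 to 0.1). Gm37759, on the other strand, shares 20.0% of the exonic bases of Cacna1s.

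L-, P/Q-, N- and R-type pores need beta and alpha2delta subunits to reach the membrane and to gate normally, whereas T-type pores form working channels without them. Of 16 auxiliary subunit genes (beta, alpha2delta and gamma), 14 were tested, 10 were called higher, 1 was called lower and 3 passed no threshold, with a median log2 fold change of 0.37, beside 13.9% and 13.6% of all genes. The largest rises were in Cacng5 (20.1, 20.6 and 20.1 CPM with GFP, 34.1, 37.0 and 32.2 CPM with Ezh2-Y726D, log2 fold change 0.76 ± 0.069), Cacng3 (0.54 ± 0.076) and the alpha2delta gene Cacna2d3 (0.51 ± 0.064). Cacng5 and Cacng3 are gamma genes whose products are known mainly as AMPA receptor partners. Cacng2, Cacng4 and Cacng7, gamma genes of the same kind, were also among the 10 called higher. The single member called lower was Cacna2d4, the alpha2delta subunit that accompanies CaV1.4 in photoreceptors, at 237, 259 and 243 CPM with GFP and 177, 180 and 186 CPM with Ezh2-Y726D (-0.44 ± 0.041, adjusted P = 1.65e-09). The interval of Cacna2d4 was -0.53 to -0.36 and that of Cacna1f -0.43 to -0.24, and the difference between both genes was not tested.

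Genes whose products bind the channel complex, here called direct regulators, went both ways. Of 14 direct regulators, 5 were called higher, 4 were called lower and 5 passed no threshold, with a median log2 fold change of -0.079, beside 13.9% and 13.6% of all genes. The calcium-binding protein Cabp1 rose from 67.9, 64.1 and 67.0 CPM to 93.8, 92.0 and 86.2 CPM (log2 fold change 0.44 ± 0.049), and the adaptor Stac2 (0.28 ± 0.061) and the calmodulin gene Calm3 (0.27 ± 0.039) rose by less. The RGK GTPase Rem1, which lowers calcium channel activity, had the largest fitted fall but only 4 to 25 counts in a library (-1.11 ± 0.381, adjusted P = 0.0298). With DESeq2, RGC marker scaling or thinned counts, without both GFP libraries rich in CT010467.1, or without GFP replicate 1, GFP replicate 2, Ezh2-Y726D replicate 1 or Ezh2-Y726D replicate 2, 3 of the 14 were called lower. By library totals without CT010467.1, with the replicate number as a block, or without Ezh2-Y726D replicate 3, 5 of the 14 were called lower. Cabp2 (-0.93 ± 0.16) and Cabp5 (-0.61 ± 0.051), relatives of calmodulin found in bipolar cells, fell, the latter from 110, 125 and 111 CPM to 71.0, 76.2 and 78.9 CPM. These falls stood beside the 7 bipolar cell markers called lower of 8 given above. Cabp4, the partner of CaV1.4 in photoreceptors, was at 28.8, 27.3 and 28.9 CPM with GFP and at 24.3, 23.2 and 28.0 CPM with Ezh2-Y726D, and the groups overlapped (adjusted P = 0.0831).

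Active zone scaffolds tether calcium channels to release sites. Of 9 such genes, 8 were called higher and none lower, with a median log2 fold change of 0.28, beside 13.9% and 13.6% of all genes. With DESeq2, with thinned counts, with the length trend removed, or without GFP replicate 1, Ezh2-Y726D replicate 1 or Ezh2-Y726D replicate 3, 6 of the 9 were called higher. With all libraries and TMM scaling, the gene not called was Rims2, at 208, 223 and 233 CPM with GFP and 203, 221 and 215 CPM with Ezh2-Y726D. The RIM-binding protein gene Rimbp2 rose from 32.4, 33.4 and 29.5 CPM to 45.8, 46.9 and 45.8 CPM (0.52 ± 0.059, adjusted P = 6.14e-08), and Pclo (0.46 ± 0.058) and Bsn (0.37 ± 0.047), which encode large scaffold proteins of the active zone, rose as well. Among 6 genes of calcium-activated potassium channels, which turn calcium entry into repolarization, Kcnn2 (14.7, 14.2 and 13.3 CPM with GFP, 19.0, 22.7 and 19.9 CPM with Ezh2-Y726D, 0.51 ± 0.085) and Kcnmb4 (0.31 ± 0.103, adjusted P = 0.0268) were called higher, where 13.9% of all genes were. The other 4, Kcnma1, Kcnmb2, Kcnn1 and Kcnn3, passed no threshold, with Kcnma1 at 205, 217 and 205 CPM against 197, 210 and 218 CPM. Without GFP replicate 1, Ezh2-Y726D replicate 1 or Ezh2-Y726D replicate 2 only 1 of the 6 was called higher, a share near that of all genes.

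**Figure D4:**
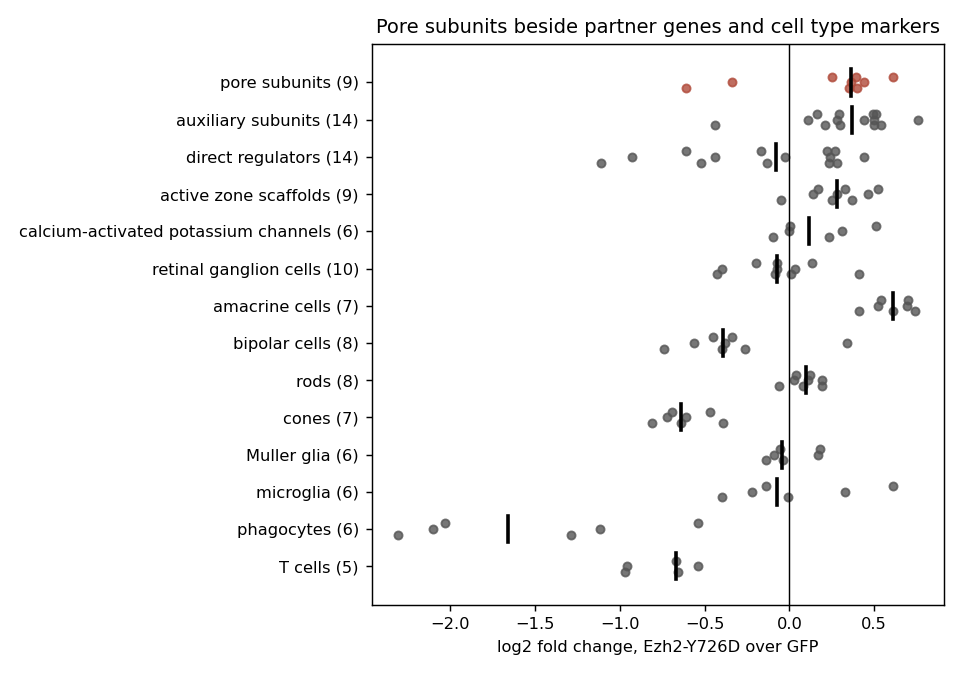
Log2 fold change, Ezh2-Y726D over GFP, of the pore subunits (red) beside partner genes and cell type markers (grey), with the number of genes tested in parentheses. Each point is a gene and vertical bars are medians, 0.36 for pore subunits, 0.37 for auxiliary subunits, 0.61 for amacrine cell markers, -0.64 for cone markers and -1.66 for phagocyte markers.

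The patterns over the 6 libraries were also compared with those of 10489 other genes at a mean of 10 CPM or more, as a description, since both groups form separate clusters of libraries and many genes that differ between them correlate strongly. For Cacna1c, the genes closest in log2 CPM were Tenm1 (Pearson r = 0.9983, log2 fold change 0.67), Dscam (r = 0.9979, 0.34) and Ahi1 (r = 0.9971, 0.27), and 47 genes had an r over 0.99. For Cacna1h they were Tln1 (r = 0.9991, -0.48), Arhgap45 (r = 0.999, -0.73) and Ttc7 (r = 0.999, -0.52), and 100 genes had an r over 0.99.

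Apart from scaling by library totals, where CT010467.1 enters the scale, all 9 members kept their direction and their call under every alternative tried. With both GFP libraries rich in CT010467.1 left out, 7 members were higher and 2 lower, with Cacna1c at 0.65 and Cacna1h at -0.63. The fitted log2 fold change ranged from 0.48 to 0.68 for Cacna1c, 0.17 to 0.32 for Cacna1d, 0.27 to 0.42 for Cacna1a, 0.30 to 0.46 for Cacna1b and 0.29 to 0.50 for Cacna1e. It ranged from 0.31 to 0.48 for Cacna1g, 0.28 to 0.44 for Cacna1i, -0.38 to -0.28 for Cacna1f and -0.67 to -0.54 for Cacna1h. The DEG calls of Cacna1c and Cacna1h rested on the position of the 1.5-fold line. Cacna1c was under it without GFP replicate 1 or without Ezh2-Y726D replicate 3 (0.56 in both), with the replicate number as a block (0.58) and with a trend in transcript length removed (0.48), and Cacna1h was under it when libraries were scaled to RGC markers (-0.54). By library totals no member was called, the median of all genes moved to 0.49, Cacna1f was at 0.17 and Cacna1h at -0.11, and both still lay below that median.

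**Figure D5:**
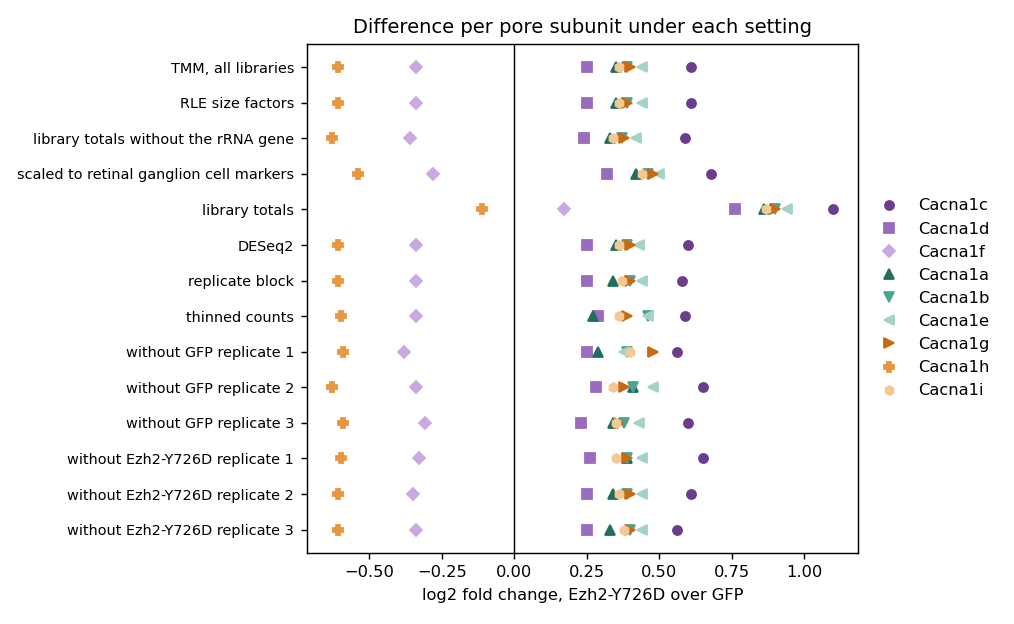
Log2 fold change of each pore subunit, Ezh2-Y726D over GFP, under the TMM scaling with all libraries (top line) and the alternatives named on the axis. Colours and symbols mark genes. The order of the genes changes little, and scaling by library totals moves every point to the right, with Cacna1f at 0.17 and Cacna1h at -0.11.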

How the data were processed

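RNA was isolated from sorted retinal cells with a kit for small samples, and libraries were prepared from total RNA with a stranded kit. The authors deposited raw counts of reads per Ensembl gene for 6 libraries, 3 with GFP and 3 with Ezh2-Y726D. The submitters' processing notes name STAR 2.7.0d and GRCm38, and the counting program, its annotation and its use of strand were not given in the sources used here. Of 32371 identifiers, 32342 were matched to symbols and positions in GENCODE vM21 (GRCm38).

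The members and gene lists were chosen with earlier results of these data known. Counts were filtered (filterByExpr, minimum count 10, minimum total 15), scaled by TMM (factors 0.647 to 1.31) and tested with edgeR 4.0.16 (R 4.3.3, quasi-likelihood test, no block), with Benjamini-Hochberg adjustment over 18138 genes. CPM were computed on the TMM-scaled library sizes of the filtered table. A gene was called at an adjusted P under 0.05 and was a DEG at a fold change over 1.5. Standard errors were the log2 fold change over the root of the F statistic, with 95% intervals from its degrees of freedom. Class shares were tested with scipy 1.17.1 by a two-sided exact permutation test. Named genes were the 9 members, Ezh2, Cacna1s, Nalcn, up to 3 of the largest called rises and falls in each partner list, and the 3 genes that correlated best with Cacna1c and Cacna1h. Rims2, Cabp4, Cacng2, Cacng4, Cacng7, Kcnma1, the other uncalled potassium channel genes and single markers were named outside this rule, after their values were seen.

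Libraries held 9333244 to 23782520 counts, and without CT010467.1 they held 4460732 to 22024582. No pair of libraries agreed within sampling noise (chi-square per degree of freedom of 1.36 to 2.45 within groups and 5.47 to 10.2 between groups). On counts simulated for the comparison of Ezh2-Y726D with GFP over 18138 genes, the test recovered 67 of 100 genes changed by 0.5 and 80 of 100 changed by 1 on the log2 scale, with 7 false calls. The changed genes were drawn at random from all genes tested, whatever their counts, so this recovery does not describe the members. Alternatives were other scalings, DESeq2 1.42.0, other filters and fold thresholds, thinned counts, a replicate block, each library left out and another gene length. Leaving out both GFP libraries rich in CT010467.1 and removing a trend with transcript length (lowess, span 0.3) were chosen after the data were seen.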

Additional observations from a re-analysis of the deposited data

How the results depend on the processing

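For the 9 members under 17 alternatives each, 144 of 153 fitted differences kept their direction and call, and the 9 that did not were all from scaling by library totals. There 65 of 18138 genes were called at all and 6 members had an unadjusted P under 0.05, 0 members were higher, 0 lower and 0 DEGs, and the counts were 0 for auxiliary subunits and direct regulators in either direction and for rises of active zone scaffolds and calcium-activated potassium channels. Cacna1f turned to 0.17 and Cacna1s to 0.21 with that scaling, which counts CT010467.1 as part of the library. The number of DEGs among the members was 2, and it was 1 with RGC marker scaling (Cacna1h at -0.54), 1 with the replicate block (Cacna1c at 0.58), 1 with the length trend removed (Cacna1c at 0.48), 8 at a lower fold threshold and 0 at a fold change over 2. Leaving out 1 library gave 1 to 2. Calcium-activated potassium channels called higher were 2, and 1 with DESeq2, with thinned counts and without both GFP libraries rich in CT010467.1, and 1 to 2 with 1 library left out. With the length trend removed 1 was called lower. With the longest transcript as length, the differences in class shares were -1.09 (L-type), 4.2 (P/Q-, N- and R-type) and -3.11 (T-type) percentage points, close to those with the exonic length.

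Same-numbered GFP and Ezh2-Y726D libraries deviated together only weakly (correlations of 0.072, 0.034 and 0.024), although each library correlated best with its own number, so the numbers were not taken as pairs. The replicate block called 5222 genes in place of 4988 and kept 7 members higher and 2 lower. Rem1, with 4 to 25 counts in a library, was the called partner gene with the fewest counts. Scalings other than library totals left the median of all genes between -0.018 and 0.072.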

Other observations

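Genes that handle calcium behind the pore were listed after the values of the pore subunits were seen. Among 7 genes of calcium extrusion, 6 were called higher and 1 lower, with a median log2 fold change of 0.34. The sodium-calcium exchanger gene Slc8a2 was at 10.6, 11.2 and 11.4 CPM with GFP and at 15.3, 16.1 and 15.3 CPM with Ezh2-Y726D (log2 fold change 0.51 ± 0.088 SE), and the plasma membrane calcium pump gene Atp2b2 was at 145, 149 and 140 CPM against 209, 199 and 202 CPM (0.49 ± 0.04). Slc8a1 rose as well (0.39 ± 0.044). The pump gene called lower was Atp2b1, at 379, 390 and 379 CPM against 325, 353 and 368 CPM (-0.13 ± 0.043, adjusted P = 0.0203).

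Genes of calcium release and store refilling went both ways, with 4 of 13 tested called higher, 5 lower and 4 uncalled. The ryanodine receptor genes Ryr1 (0.77 ± 0.126) and Ryr2 (0.37 ± 0.041) rose and Ryr3 fell (-0.21 ± 0.056). Among the inositol trisphosphate receptor genes, Itpr1 rose (0.18 ± 0.04) and Itpr2 (-0.23 ± 0.054) and Itpr3 (-0.51 ± 0.105) fell, and of the store pump genes Atp2a2 rose (0.14 ± 0.039) and Atp2a3 fell (-0.85 ± 0.092). Of 6 genes for cytosolic calcium buffers, 3 were called higher. Necab1 was at 76.6, 79.3 and 70.8 CPM with GFP and at 134, 145 and 138 CPM with Ezh2-Y726D (0.87 ± 0.047), Necab3 rose by less (0.56 ± 0.091), and Calb2, which encodes calretinin and is used as a marker of amacrine cells and RGCs, was at 81.7, 82.7 and 82.3 CPM against 106, 102 and 95.6 CPM (0.30 ± 0.047). Over all genes tested, 13.9% were called higher and 13.6% lower.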
